A study of Homo sapiens with 18 samples.

Results

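The axon guidance genes described here are the 4 classical families of guidance cues and their receptors: ephrins and Eph receptors, semaphorins with plexins and neuropilins, netrins with DCC and the UNC5 receptors, and Slits with Robos. They were chosen by gene symbol, which gave 71 of the 63677 gene identifiers in the tables. The samples were bulk RNA sequencing libraries of xenograft tumours, grown in mice from the human neuroblastoma cell lines SKNAS, LAN-1 and KELLY. Neuroblastoma is a childhood tumour of the sympathetic nervous system. Every line had an arm named Hmx1 and a control arm, with 3 libraries per arm, 6 groups and 18 libraries in all.

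The 6 groups were SKNAS Hmx1 and SKNAS control, LAN-1 Hmx1 and LAN-1 control, and KELLY Hmx1 and KELLY control. The labels give no other treatment, time or host strain, and leave the direction in which Hmx1 was altered unstated. For 2 of the KELLY control libraries they add the genotype MYCN-amp. The number of mice per group is not given, and nothing ties each library to a mouse of its own. The p-values therefore reflect variation among the sequenced libraries and may hold technical variation alone. In bulk tumours, fewer cells that express a gene and less RNA of that gene per cell cannot be told apart.

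Axon guidance cues steer growing nerve fibres by attraction or repulsion. Ephrins are anchored to the cell surface and bind Eph receptor tyrosine kinases on neighbouring cells, class 3 semaphorins are secreted and signal through neuropilins and plexins, netrins act through DCC and UNC5 receptors, and Slits repel through Robo receptors. Sympathetic neurons and the neural crest cells from which they arise respond to several of these cues, among them the class 3 semaphorins.

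Expression was measured as TPM (transcript abundance), a deposited value that is scaled for gene length and to a fixed total. It carries no record of sequencing depth, and the reads behind each value cannot be counted. The libraries held 21590 to 24901 genes above 0, and mitochondrial genes took 4.47% to 33.8% of the TPM. Pearson's r across genes within a group was 0.981 to 0.994. HMX1 itself, the homeobox gene that names the arm, stood at 1.24, 0.193 and 0.411 TPM in the SKNAS Hmx1 libraries, against 0 in all 3 SKNAS control libraries. It had 11.5, 16.5 and 11.6 TPM in LAN-1 Hmx1 tumours against 11.9, 11.7 and 11.1 TPM in LAN-1 control tumours, and 6.40, 5.41 and 4.68 TPM in KELLY Hmx1 tumours against 7.72, 3.92 and 5.46 TPM in KELLY control tumours. The HMX1 values of the arms thus overlapped in LAN-1 and KELLY. A pair of libraries stood apart within their groups: KELLY control replicate 2 had 12.9% mitochondrial TPM, against 33.8% and 29.6% in the other KELLY controls, and the guidance genes of LAN-1 Hmx1 replicate 1 summed to 909 TPM, against 607 and 628 TPM in the other LAN-1 Hmx1 libraries. HAND2, a sympathoadrenal lineage factor, averaged 245 to 356 TPM over the 6 groups. SKNAS tumours were low in TH, the first enzyme of catecholamine synthesis, at 0.107 TPM in the Hmx1 arm and 2.88 TPM in the control arm.

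The 71 axon guidance genes summed to 514 to 1122 TPM per library, and 43 to 57 of them reached 1 TPM in a library. A gene was tested if it reached 1 TPM in at least 3 libraries, which 63 of the 71 did. Of the 71, 34 were at or above 1 TPM in all 18 libraries, and none was at 0 in all of them. The 8 that were not tested were EPHA1, EPHA4, EPHA5, EPHB6, DCC, UNC5D, NTN5 and ROBO4, whose highest value anywhere was 1.18 TPM, for DCC in a LAN-1 Hmx1 library. DCC, the attractive netrin receptor, was thus near the bottom of the scale in every tumour. Of the UNC5 receptors, which mediate repulsion by netrins, UNC5D was untested as well, and UNC5A, UNC5B and UNC5C averaged 2.22 to 76.8 TPM over the 6 groups.

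**Figure D1:**
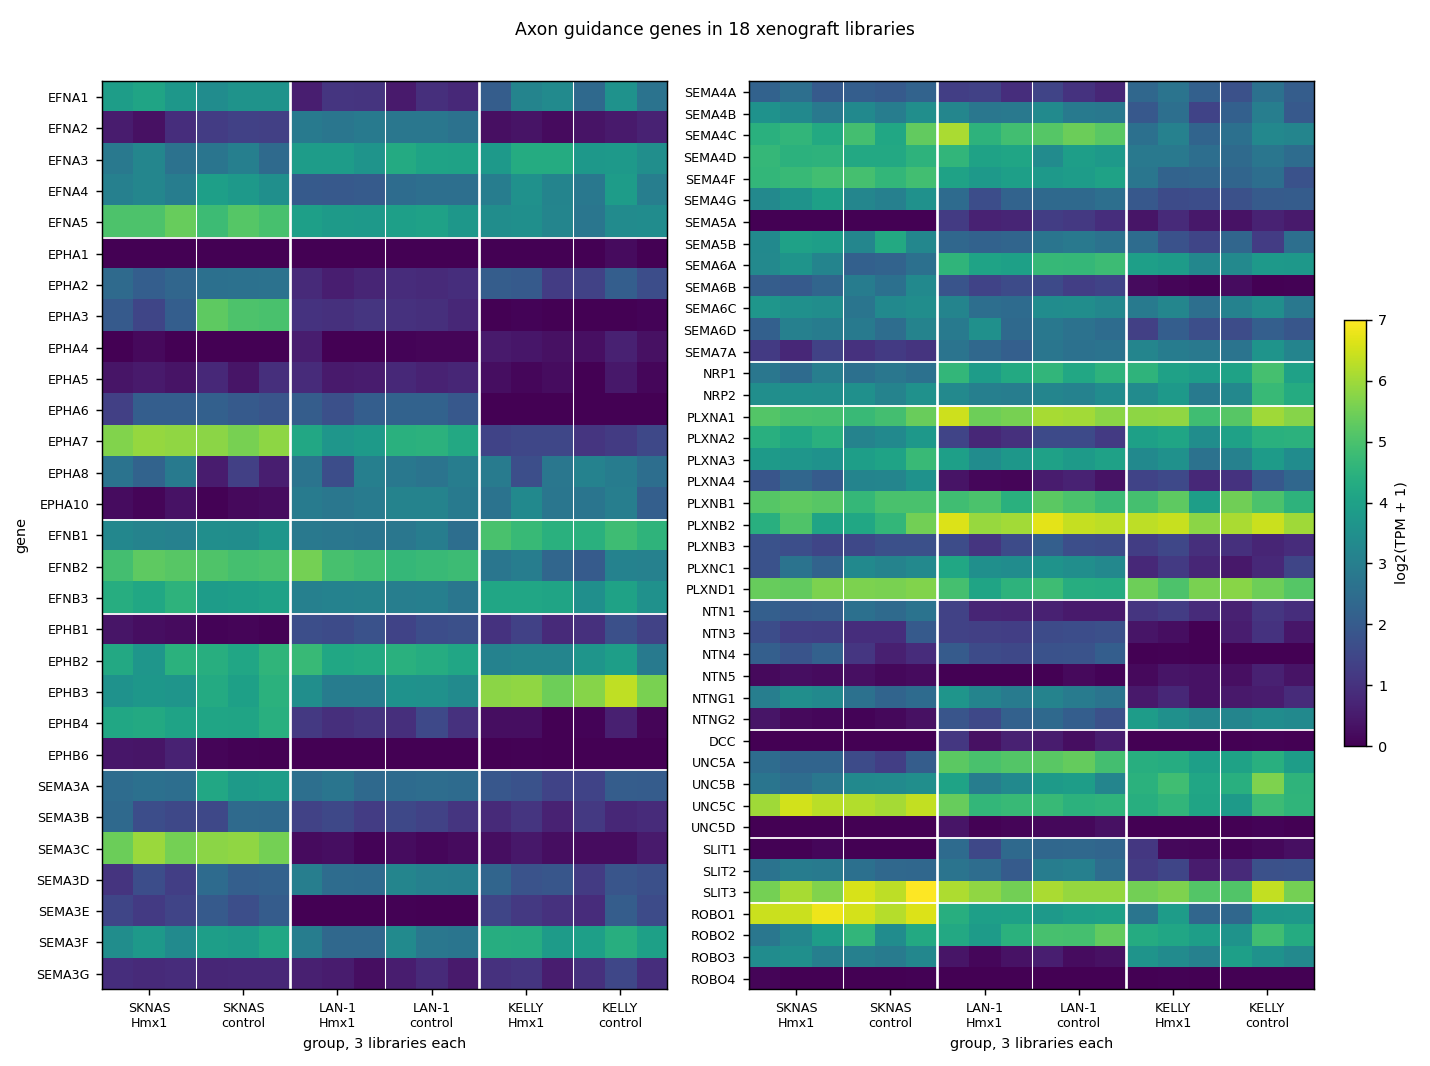
Level of the 71 genes in each of the 18 libraries as log2(TPM + 1), by colour, with genes in rows ordered by family and the 3 libraries of each group side by side. The 3 lines separate for many genes, such as SEMA3C and EPHB4 in SKNAS, while EPHA3 is the gene that separates the SKNAS arms most.

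By summed TPM the plexins were the most abundant family, at 173 ± 4.58 and 186 ± 36.8 TPM in SKNAS Hmx1 and control tumours, 210 ± 60.2 and 233 ± 31.9 TPM in LAN-1, and 212 ± 44.1 and 232 ± 26.8 TPM in KELLY (mean ± SD, n = 3 each). PLXND1, a receptor for SEMA3E, led in SKNAS control tumours at 48.6 ± 1.51 TPM. PLXNB2, a receptor for class 4 semaphorins, led in LAN-1 and KELLY control tumours at 88.0 ± 14.1 and 72.5 ± 12.04 TPM. Neuropilins, the ligand-binding partners of plexins, differed in which gene was higher: NRP2 led in SKNAS control tumours at 9.64 ± 1.62 TPM, and NRP1 in LAN-1 and KELLY control tumours at 20.9 ± 3.26 and 19.9 ± 8.12 TPM.

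Class 3 semaphorins summed to 71.8 ± 11.5 TPM in SKNAS Hmx1 and 92.2 ± 3.83 TPM in SKNAS control tumours, against 17.5 to 25.9 TPM on average in the groups of the other lines. SEMA3C led them in SKNAS controls, SEMA3D in LAN-1 controls (7.50 ± 0.542 TPM) and SEMA3F in KELLY controls (16.4 ± 3.21 TPM). Among class 4 to 7 semaphorins, which are membrane-bound, SEMA4C led in SKNAS and LAN-1 controls at 28.1 ± 10.8 and 37.4 ± 3.85 TPM, and SEMA6A led in KELLY controls at 11.3 ± 2.18 TPM.

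Among ephrins-A, EFNA5 led in SKNAS controls at 30.5 ± 3.66 TPM, and EFNA3 led in LAN-1 and KELLY controls at 16.4 ± 1.72 and 11.7 ± 1.38 TPM. Among ephrins-B, EFNB2 led in SKNAS and LAN-1 controls at 31.1 ± 1.67 and 25.8 ± 1.28 TPM, and EFNB1 in KELLY controls at 23.6 ± 3.59 TPM. EPHA7 was the leading EphA receptor in SKNAS and LAN-1 controls, at 51.7 ± 5.12 and 20.1 ± 2.05 TPM, and EPHA8 in KELLY controls at 6.33 ± 1.48 TPM. EPHB2 led the EphB receptors in SKNAS and LAN-1 controls, at 19.9 ± 3.25 and 18.8 ± 2.18 TPM, and EPHB3 in KELLY controls at 59.6 ± 17.1 TPM.

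Netrins had the lowest sum of the families in every group but SKNAS Hmx1, where neuropilins were lower, and averaged 11.3 to 17.0 TPM per group, with NTN1 the highest in SKNAS controls (4.87 ± 0.513 TPM), NTNG1 in LAN-1 controls (6.58 ± 1.16 TPM) and NTNG2 in KELLY controls (8.90 ± 0.800 TPM). Among DCC and the UNC5 receptors, UNC5C led in SKNAS controls at 73.0 ± 7.21 TPM. UNC5A led in LAN-1 controls at 34.9 ± 5.16 TPM and UNC5B in KELLY controls at 30.7 ± 16.2 TPM. SLIT3 led the Slits in all 3 lines, at 99.0 ± 24.4, 61.5 ± 6.02 and 53.4 ± 25.0 TPM in SKNAS, LAN-1 and KELLY controls. ROBO1 led the Robos in SKNAS controls at 88.1 ± 12.9 TPM, and ROBO2 in LAN-1 and KELLY controls at 32.8 ± 5.42 and 19.2 ± 8.32 TPM. Slits were the only one of the 12 families in which the control tumours of all 3 lines shared the leading gene.

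**Figure D2:**
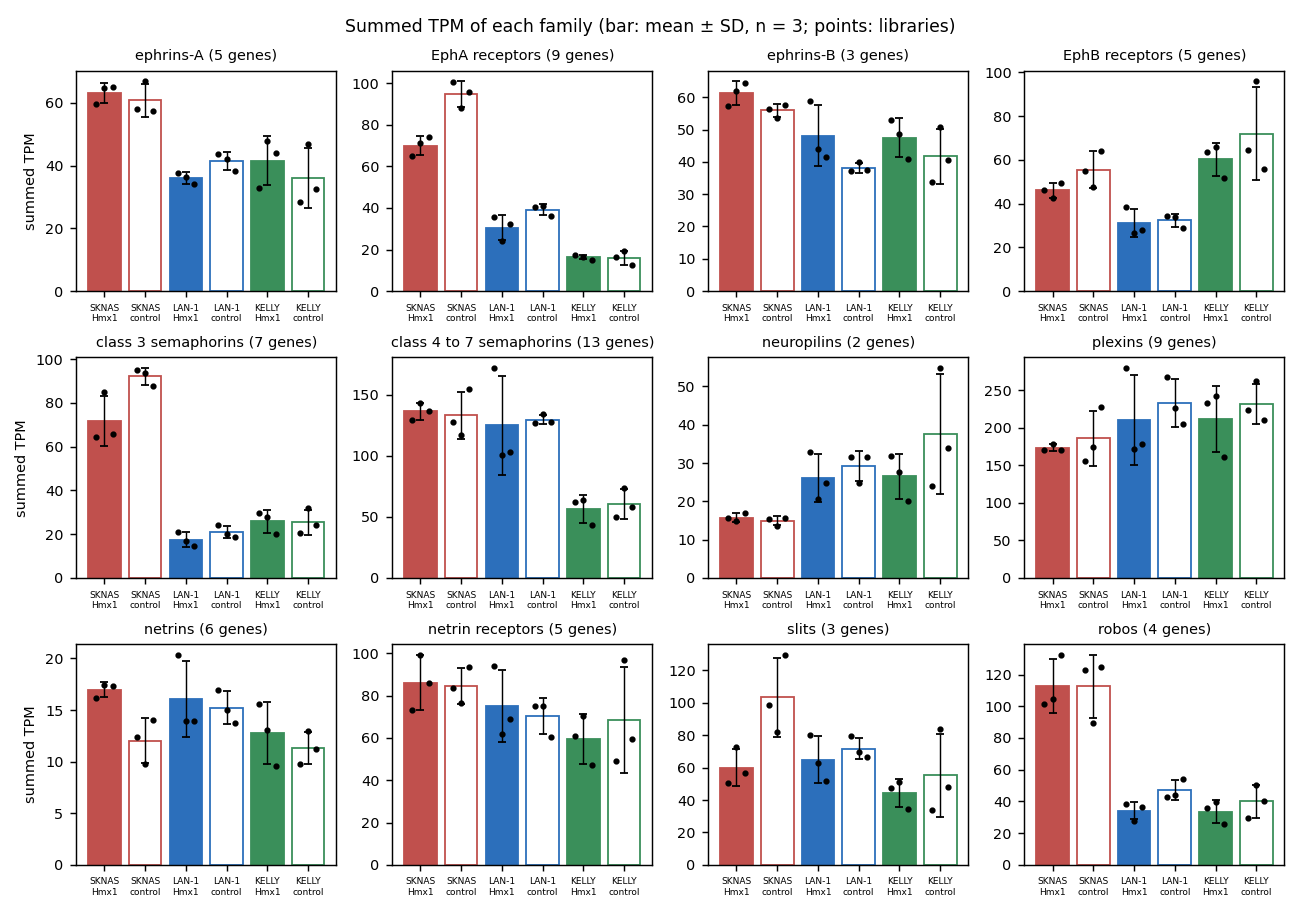
Summed TPM of the 12 families in the 6 groups, with bars for the mean, error bars for the SD over 3 libraries and points for single libraries. EphA receptors, class 3 semaphorins and Robos are highest in SKNAS, neuropilins lowest there.

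The first comparison was Hmx1 against control tumours within a line. In SKNAS, 12 of the 63 tested genes passed an adjusted p of 0.05 (limma on log2(TPM + 1), Benjamini-Hochberg adjustment over all 18650 tested genes), which is 19.0%, where 8.76% of all genes passed. EPHA8, NTN4, NTNG1, PLXNA2 and SEMA6A were higher, 5 genes where 4.96% of all genes were higher. EPHA3, SEMA3A, PLXNA4, PLXNC1, SEMA3D, SEMA6B and EFNA2 were lower, 7 genes where 3.80% of all genes were lower. The median log2 change of the 63 was -0.0033, against 0 over all genes. The 3 Hmx1 and 3 control values did not overlap for 30 of the 63 genes (47.6%), against 30.9% of all genes. The genes were chosen with earlier results of these data known, so these shares are no test of an excess among guidance genes.

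The 250 bases before the transcription start are shown for the genes with the largest fall and the 2 largest rises in SKNAS, since HMX1, the gene that names the arm, encodes a DNA-binding factor. They are from RefSeq, build GRCh38.p14, and run 5′ to 3′ on the strand of the gene. EPHA3 lies on the plus strand at chr3:89107371-89107620 and EPHA8 on the plus strand at chr1:22563239-22563488. NTN4 lies on the minus strand and has a pair of annotated starts, with windows at chr12:95791156-95791405 (upstream) and chr12:95790765-95791014 (downstream). Capitals mark CAAGTG, a core letter string bound by HMX-type homeodomains, searched on both strands.
EPHA3: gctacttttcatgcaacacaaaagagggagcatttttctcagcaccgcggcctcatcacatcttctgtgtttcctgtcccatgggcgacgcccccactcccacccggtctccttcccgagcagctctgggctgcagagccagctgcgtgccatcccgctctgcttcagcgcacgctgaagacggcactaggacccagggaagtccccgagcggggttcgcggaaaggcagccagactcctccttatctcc
EPHA8: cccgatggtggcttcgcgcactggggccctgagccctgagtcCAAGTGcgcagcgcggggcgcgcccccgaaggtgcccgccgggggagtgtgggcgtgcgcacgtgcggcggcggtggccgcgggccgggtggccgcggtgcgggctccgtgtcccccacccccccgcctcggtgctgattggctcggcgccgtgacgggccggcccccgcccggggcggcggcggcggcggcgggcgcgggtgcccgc
NTN4 upstream start: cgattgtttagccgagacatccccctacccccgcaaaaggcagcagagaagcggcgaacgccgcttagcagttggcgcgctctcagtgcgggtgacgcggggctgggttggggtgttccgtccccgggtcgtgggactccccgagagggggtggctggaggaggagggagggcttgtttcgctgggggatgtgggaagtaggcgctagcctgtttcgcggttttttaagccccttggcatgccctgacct
NTN4 downstream start: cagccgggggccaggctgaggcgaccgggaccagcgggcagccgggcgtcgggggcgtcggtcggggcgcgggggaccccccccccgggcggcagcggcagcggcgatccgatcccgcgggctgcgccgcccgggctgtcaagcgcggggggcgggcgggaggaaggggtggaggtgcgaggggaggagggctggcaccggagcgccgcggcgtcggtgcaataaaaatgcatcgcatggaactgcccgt

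The windows are rich in G and C, at 61.2% for EPHA3, 83.2% for EPHA8, and 64.4% and 78.4% for the upstream and downstream NTN4 starts. CAAGTG occurred 1 time, in the EPHA8 window. Of the 71 genes, 60 had a promoter in the table, and 8 of these held the string in at least 1 window (13.3%): EFNA1, EPHA6, EPHA8, PLXNB2, ROBO1, ROBO2, SEMA3F and UNC5C. The share was 11.6% over 27305 genes of the table, and 1 of the 9 SKNAS-called genes with a promoter held it. A match of these letters is a description of the window and not a binding site.

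EPHA3, a receptor for ephrins-A, had the largest change of the family. It stood at 2.98, 1.75 and 3.25 TPM in SKNAS Hmx1 tumours, against 37.2, 32.2 and 30.6 TPM in SKNAS control tumours. Every Hmx1 library was far below every control library, and the mean TPM of the control arm was 12.5 times that of the Hmx1 arm (log2 change -3.25, SE 0.16, adjusted p = 3.7e-10). EPHA8, another ephrin-A receptor, went the other way, with 5.36, 3.68 and 6.38 TPM in Hmx1 tumours, against 0.459, 1.49 and 0.511 TPM in control tumours. The groups did not overlap, and the log2 change was 1.77 (SE 0.35, adjusted p = 0.00277). EFNA2, an ephrin-A ligand, was low in both arms, with 0.452, 0.237 and 0.902 TPM in Hmx1 tumours, against 1.38, 1.58 and 1.53 TPM in control tumours (log2 change -0.73, SE 0.16, adjusted p = 0.0057), a call lost with only the SKNAS libraries in the fit (adjusted p = 0.0522). EFNA2 overlaps PWWP3A on the same strand, which stood at 66.9 and 68.9 TPM on average in SKNAS Hmx1 and control tumours.

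The other EphA receptor at high level, EPHA7, did not pass, at 50.3, 58.4 and 56.5 TPM in Hmx1 tumours against 53.6, 45.9 and 55.6 TPM in control tumours. EPHA7 held most of the summed EphA TPM in both SKNAS arms. That sum was 70.0 ± 4.57 TPM in Hmx1 tumours and 94.7 ± 6.25 TPM in control tumours (SD, n = 3 each). No ephrin-B and no EphB receptor passed in SKNAS. EFNB2, the most abundant ephrin-B there, stood at 29.2, 37.1 and 35.0 TPM in Hmx1 tumours against 32.9, 29.6 and 30.9 TPM in control tumours.

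Among the semaphorins, 1 gene was higher and 3 were lower. SEMA3A, the secreted repellent of sympathetic and sensory axons, had 4.60, 5.02 and 4.79 TPM in SKNAS Hmx1 tumours, against 17.2, 13.1 and 13.9 TPM in control tumours. The highest Hmx1 library was below the lowest control library by more than the range of either arm, and the log2 change was -1.43 (SE 0.20, adjusted p = 6.6e-05). SEMA3D, a further class 3 semaphorin, had 1.07, 2.13 and 1.44 TPM in Hmx1 tumours, against 4.45, 3.37 and 3.53 TPM in control tumours (log2 change -0.92, SE 0.22, adjusted p = 0.0113). The call for SEMA3D was lost without SKNAS control replicate 1 or SKNAS Hmx1 replicate 1 (log2 change -0.83 to -0.78, adjusted p = 0.0626 to 0.0726 in limma).

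SEMA3A and SEMA3D are neighbours in a run of 4 class 3 semaphorin genes on the minus strand of chromosome 7, with SEMA3C, SEMA3E, SEMA3A and SEMA3D in order between 80371854 and 84816171 in GRCh37. The other two did not pass, and SEMA3E was chosen for mention after its values were seen. SEMA3C had 42.1, 61.2 and 45.9 TPM in Hmx1 tumours against 53.7, 56.6 and 45.1 TPM in control tumours, and SEMA3E had 1.77, 1.28 and 1.70 TPM against 2.95, 2.20 and 3.09 TPM (adjusted p = 0.185). The gap between SEMA3A and SEMA3D is 502829 bases, and that between SEMA3C and SEMA3E 2441547 bases.

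SEMA6A and SEMA6B, transmembrane semaphorins that bind class A plexins, moved in opposite directions. SEMA6A had 8.77, 11.4 and 7.86 TPM in SKNAS Hmx1 tumours, against 3.46, 3.66 and 4.94 TPM in control tumours (log2 change 1.04, SE 0.22, adjusted p = 0.00516). SEMA6B had 3.20, 2.92 and 3.86 TPM in Hmx1 tumours, against 6.65, 4.94 and 8.99 TPM in control tumours (log2 change -0.83, SE 0.18, adjusted p = 0.00607). The SEMA6B call was lost with a pseudocount of 0.1 (adjusted p = 0.142 in limma) and with only the SKNAS libraries in the fit (adjusted p = 0.082 in limma). Neither gene's arms overlapped. SEMA6A overlaps antisense and pseudogene transcripts, of which RPS14P8 averaged 6.78 and 6.42 TPM and SEMA6A-AS1 3.94 and 2.82 TPM in Hmx1 and control tumours, and strand use in the counting is not given.

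Of the 9 plexins, PLXNA2 was higher and PLXNA4 and PLXNC1 were lower. PLXNA2, a receptor for SEMA6A, had 20.5, 16.6 and 20.8 TPM in SKNAS Hmx1 tumours, against 7.84, 9.08 and 12.2 TPM in control tumours (log2 change 0.94, SE 0.23, adjusted p = 0.0141). PLXNA4, a signalling partner of neuropilin 1 for SEMA3A, had 2.60, 3.99 and 3.04 TPM in Hmx1 tumours, against 7.93, 8.04 and 10.97 TPM in control tumours (log2 change -1.25, SE 0.28, adjusted p = 0.00652), a call lost with a pseudocount of 0.1 (adjusted p = 0.0769). PLXNC1, the receptor of SEMA7A, had 2.37, 5.31 and 3.65 TPM in Hmx1 tumours, against 9.02, 7.75 and 8.88 TPM in control tumours (log2 change -1.04, SE 0.27, adjusted p = 0.0203).

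SEMA6A and its receptor PLXNA2 were thus both higher, and SEMA3A and PLXNA4 both lower, in all 3 Hmx1 libraries than in any control library. Other pairings of class A plexins with their ligands ran in opposite directions. SEMA6A was higher while PLXNA4 was lower, and SEMA6B was lower while PLXNA2 was higher. A joint change of ligands and receptors was not tested. The PLXNA2 call was lost without SKNAS control replicate 1 or 2, or without SKNAS Hmx1 replicate 1 or 3 (log2 change 0.81 to 0.91, adjusted p = 0.0529 to 0.0805 in limma). The PLXNC1 call was lost without SKNAS control replicate 1 or 3, or without SKNAS Hmx1 replicate 1 or 3 (log2 change -1.05 to -0.82, adjusted p = 0.0602 to 0.127 in limma). CEP83, on the opposite strand over PLXNC1, averaged 30.3 TPM in Hmx1 and 25.3 TPM in control tumours. The neuropilins did not pass, with NRP1 at 5.80, 4.45 and 6.94 TPM in Hmx1 tumours against 4.96, 5.86 and 5.06 TPM in control tumours.

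Of the netrin system, the called genes were NTN4 and NTNG1, both higher. NTN1, the highest netrin in SKNAS controls, did not pass and went the other way. It had 3.35, 3.02 and 3.19 TPM in SKNAS Hmx1 tumours, against 4.94, 4.32 and 5.34 TPM in control tumours. NTN4, a laminin-related netrin of basement membranes, had 3.31, 2.55 and 3.50 TPM in SKNAS Hmx1 tumours, against 1.17, 0.535 and 0.863 TPM in control tumours (log2 change 1.16, SE 0.17, adjusted p = 0.000145). NTNG1, a membrane-anchored netrin-G, had 6.92, 10.02 and 9.05 TPM in Hmx1 tumours, against 5.08, 3.76 and 4.46 TPM in control tumours (log2 change 0.82, SE 0.21, adjusted p = 0.0199). The NTNG1 call was lost without SKNAS control replicate 2 or 3, or without SKNAS Hmx1 replicate 2 or 3 (log2 change 0.72 to 0.83, adjusted p = 0.0528 to 0.0995 in limma). No netrin receptor passed. UNC5A was closest, with 4.56, 3.78 and 3.76 TPM in Hmx1 tumours against 2.01, 1.45 and 3.20 TPM in control tumours (adjusted p = 0.053), and UNC5C had 63.1, 90.8 and 76.3 TPM against 72.7, 65.9 and 80.3 TPM.

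No Slit or Robo passed in SKNAS. SLIT3, the most abundant ligand of this system, had 45.1, 66.3 and 50.2 TPM in Hmx1 tumours, against 93.8, 77.6 and 125.6 TPM in control tumours, groups that did not overlap but whose difference missed the threshold (log2 change -0.86, SE 0.27, adjusted p = 0.0634). Its receptor ROBO1 had 85.6, 86.0 and 111.4 TPM in Hmx1 tumours, against 92.3, 73.6 and 98.4 TPM in control tumours, with overlapping ranges.

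**Figure D3:**
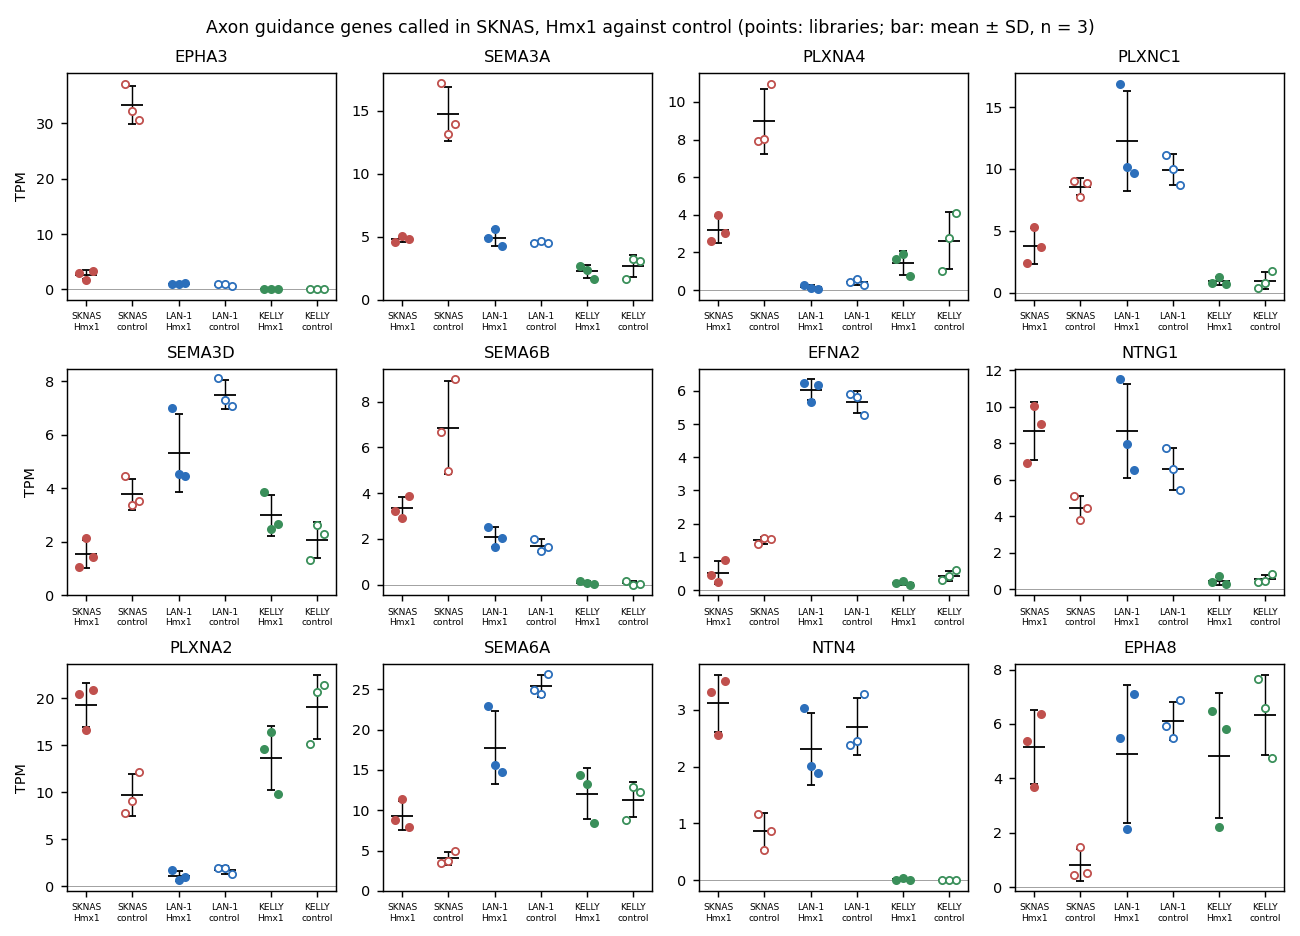
TPM of the 12 genes called in SKNAS, ordered from the largest fall to the largest rise, in all 6 groups, with points for libraries and a bar for the mean ± SD (n = 3). In SKNAS the Hmx1 and control points do not overlap for any of the 12, while EPHA8 in SKNAS Hmx1 tumours lies in the range of the LAN-1 and KELLY tumours.

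EPHA3, EPHA8, NTN4, SEMA3A and SEMA6A passed under all 15 alternatives tried. Other markers moved with the SKNAS arms. Of the 12 tested sympathoadrenal markers, TH was lower (log2 change -1.81, adjusted p = 2.9e-05) and 10 did not pass. CHGA, a secretory granule protein, was higher, at 1508 TPM in Hmx1 and 825 TPM in control tumours (log2 change 0.89, adjusted p = 0.00603). Of those that did not pass, CHGB and DBH averaged lower in Hmx1 tumours, at 231 against 431 TPM and 79.5 against 126 TPM. GATA3 averaged higher, at 12.3 against 5.85 TPM. Of the 7 tested mesenchymal neuroblastoma markers, SNAI2 and NOTCH2 were lower, and the 8 listed markers summed to 457 to 503 TPM in Hmx1 against 678 to 744 TPM in control tumours. That sum was carried by VIM, at 427 and 627 TPM on average, which did not pass. Of the 10 fibroblast and pericyte markers, PDGFRA, LUM and DPT were lower, with sums of 1422 to 1656 TPM in Hmx1 and 1580 to 1798 TPM in control tumours. The others did not pass. Among them RGS5, DCN, PDGFRB, COL1A2 and ACTA2 averaged higher in Hmx1 tumours, and COL1A1 and COL3A1 lower. RGS5 averaged 666 TPM in Hmx1 against 454 TPM in control tumours, and COL3A1 392 against 602 TPM. Of the 4 tested leukocyte markers, PTPRC was higher and CD14 lower. The sum of the 8 listed leukocyte markers was 191 to 287 TPM in Hmx1 and 78.0 to 105 TPM in control tumours, carried by PTPRC at 231 and 91.9 TPM, while TYROBP was at 0 in every library of both arms. TEK was higher among 6 tested endothelial markers (sums of the 10 listed 6.92 to 9.62 against 4.33 to 6.39 TPM), with PECAM1 at 0 in all 18 libraries. S100B was higher among 3 tested Schwann cell markers (sums of the 6 listed 5.91 to 10.5 against 6.14 to 7.39 TPM, SOX10 at 0 in both arms). TNNI2 was lower among 3 tested muscle markers (sums of the 6 listed 4.72 to 7.31 against 7.75 to 12.5 TPM). The part of these in the guidance gene results was not tested.

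In LAN-1, 0 of the 63 genes passed between Hmx1 and control tumours (limma), where 0.450% of all genes passed, and 6 of the 63 had an unadjusted p under 0.05. In KELLY, 0 of the 63 passed (limma), where 0.0912% of all genes passed, and 3 had an unadjusted p under 0.05. The arms did not overlap for 16 of 63 genes in LAN-1 (25.4%), against 15.8% of all genes, and for 4 of 63 in KELLY (6.35%), against 6.67% of all genes. Both counts were also 0 under every alternative tried, among them without LAN-1 Hmx1 replicate 1 and without KELLY control replicate 2.

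The largest difference in LAN-1 was in ROBO2, a Slit receptor, with 17.8, 13.4 and 21.2 TPM in Hmx1 tumours, against 30.002, 29.4 and 39.1 TPM in control tumours (log2 change -0.88, SE 0.34, adjusted p = 0.493). ROBO2 was chosen for mention after its values were seen. In KELLY, the 3 genes with an unadjusted p under 0.05 were EFNA3, EFNB3 and NRP2, named for that after their values were seen. EFNA3 had 12.8, 18.8 and 18.8 TPM in Hmx1 tumours, against 12.2, 12.7 and 10.1 TPM in control tumours (adjusted p = 0.672). EFNB3 had 16.6, 16.7 and 16.1 TPM in Hmx1 tumours, against 10.1, 15.5 and 10.7 TPM in control tumours (adjusted p = 0.617). NRP2 had 9.39, 12.6 and 6.45 TPM in Hmx1 tumours, against 8.65, 25.5 and 18.8 TPM in control tumours (adjusted p = 0.618).

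**Figure D4:**
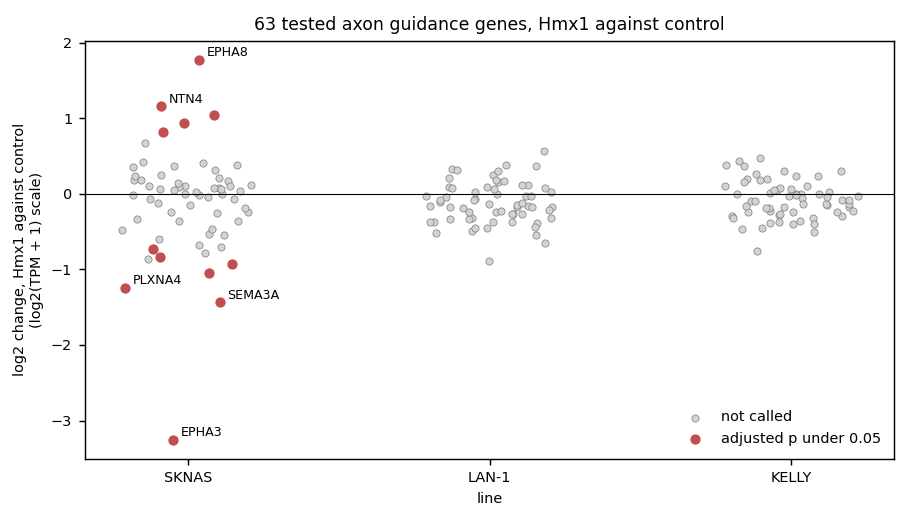
Log2 change, Hmx1 against control, of the 63 tested genes in each line, with 1 point per gene, spread sideways for legibility, and called genes in red. SKNAS has 12 called genes, from EPHA3 at -3.25 to EPHA8 at 1.77, and LAN-1 and KELLY have none.

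The next question was whether the Hmx1 effect differed between lines, tested as a difference of effects. Hmx1 effect here means the Hmx1 arm minus the control arm. Because HMX1 TPM overlapped between the arms in LAN-1 and KELLY, these values do not show how far HMX1 was altered in each line. Between SKNAS and LAN-1, 8 of the 63 genes passed (4.99% of all genes did). EPHA3, SEMA3A, SEMA6B and EFNA2 had the more negative effect in SKNAS, and EPHA8, SEMA6A, NTN4 and PLXNA2 the more positive one. This count was 5 without SKNAS control replicate 1, SKNAS Hmx1 replicate 1, LAN-1 control replicate 2 or LAN-1 Hmx1 replicate 3. Between SKNAS and KELLY, 6 passed (4.85% of all genes did): EPHA3, SEMA3A and SEMA3D with the more negative and EPHA8, NTN4 and PLXNA2 with the more positive effect in SKNAS. It was 4 without SKNAS control replicate 1. Between LAN-1 and KELLY, 0 passed (limma), where 0.209% of all genes did, and 4 had an unadjusted p under 0.05. Both SKNAS differences use the same SKNAS libraries, so their lists are not independent. EPHA3 was at or near 0 TPM in both KELLY arms, where a fall could not have been seen. The EPHA3 difference from KELLY thus largely restates the SKNAS change. NTN4 was at or near 0 TPM there as well, which would hide a fall but not a rise like that in SKNAS.

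Levels in the other lines set these differences in context. EPHA3 stood at 1.02, 0.978 and 1.11 TPM in LAN-1 Hmx1 and 0.981, 0.936 and 0.702 TPM in LAN-1 control tumours, and at no more than 0.0559 TPM in any KELLY library. A fall as large as the SKNAS one could thus not have been seen in LAN-1 or KELLY. NTN4 was at 3.04, 2.01 and 1.89 TPM in LAN-1 Hmx1 and 2.38, 2.45 and 3.28 TPM in LAN-1 control tumours. It was listed at 0 in 5 of the 6 KELLY libraries. EPHA8 had 5.49, 2.13 and 7.10 TPM in LAN-1 Hmx1 and 5.94, 5.50 and 6.87 TPM in LAN-1 control tumours, with overlapping ranges. SEMA6A had 22.9, 15.6 and 14.7 TPM in LAN-1 Hmx1 and 24.9, 24.4 and 26.9 TPM in LAN-1 control tumours, the opposite order to SKNAS, though this LAN-1 change did not pass (log2 change -0.52, SE 0.22, adjusted p = 0.62).

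Of 61 tested other genes of the same pathway, 5 passed between the SKNAS arms, a share near the 8.76% of all genes. Of 16 tested co-receptors and other cues, 2 were higher, 2 lower and 12 did not pass. CNTN2, a contactin of axon surfaces, averaged 17.3 ± 2.88 TPM in Hmx1 and 7.81 ± 1.05 TPM in control tumours (log2 change 1.05, SE 0.24, adjusted p = 0.00821). LINGO1, a Nogo receptor partner, averaged 9.12 ± 1.49 TPM in Hmx1 and 1.81 ± 0.782 TPM in control tumours (log2 change 1.87, SE 0.55, adjusted p = 0.0403). FLRT2, an UNC5 ligand, averaged 1.27 ± 0.224 TPM in Hmx1 and 4.66 ± 0.463 TPM in control tumours (log2 change -1.32, SE 0.33, adjusted p = 0.014). NRCAM, an adhesion molecule that binds neuropilin 2, fell by 0.93 on the log2 scale (3.40 ± 0.406 TPM in Hmx1 and 7.39 ± 0.457 TPM in control tumours, n = 3 each, adjusted p = 0.00649). Of 45 tested intracellular partners, 1 was higher and 44 did not pass: DPYSL2 (CRMP2), a mediator of SEMA3A signalling, averaged 441 ± 202 TPM in Hmx1 and 154 ± 12.2 TPM in control tumours (log2 change 1.43, SE 0.43, adjusted p = 0.0456). In LAN-1 and KELLY, 0 genes of either list passed. The median log2 change in SKNAS was 0.02 for the co-receptors and 0.05 for the intracellular partners, against 0 over all genes.

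The lines themselves differed far more than the arms. Control tumours were compared pair by pair. The median of all genes was shifted in these comparisons, by 0.18 for SKNAS against LAN-1, 0.54 for SKNAS against KELLY and 0.34 for LAN-1 against KELLY (log2), and the members' medians were 0.24, 0.66 and 0.46, so changes are best read against those shifts. With median-ratio scaling the all-gene medians were 0.05, 0.02 and -0.01.

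For SKNAS against LAN-1, 45 of 63 genes passed (71.4%), where 52.0% of all genes did, with 28 higher (31.5% of all genes) and 17 lower (20.5% of all genes). For SKNAS against KELLY, 50 passed (79.4%), where 65.7% of all genes did, with 33 higher (49.5% of all genes) and 17 lower (16.1% of all genes). That split depends on the scaling: it was 24 higher and 25 lower with median-ratio scaling, and 26 higher and 25 lower with quantile normalization. For LAN-1 against KELLY, 42 passed (66.7%), where 51.8% of all genes did, with 25 higher (38.2% of all genes) and 17 lower (13.6% of all genes). The median absolute log2 difference was 1.04, 1.18 and 0.87 for the 63 genes, against 0.61, 0.83 and 0.60 for all tested genes.

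SEMA3C, a secreted semaphorin that guides neural crest cells, had the largest difference. It stood at 53.7, 56.6 and 45.1 TPM in SKNAS control tumours, against 0.180, 0.0874 and 0.163 TPM in LAN-1 and 0.182, 0.182 and 0.429 TPM in KELLY control tumours. SKNAS was higher by 5.52 over LAN-1 (SE 0.17, adjusted p = 2.81e-14) and by 5.38 over KELLY (SE 0.17, adjusted p = 4.08e-14). EPHA3 followed, by 4.20 over LAN-1 and 5.07 over KELLY. EPHA7 graded over the lines, at 53.6, 45.9 and 55.6 TPM in SKNAS, 20.8, 21.7 and 17.7 TPM in LAN-1, and 1.10, 1.33 and 1.87 TPM in KELLY control tumours, with no overlap between neighbours in that order. Its log2 difference was 4.44 for SKNAS against KELLY and 3.12 for LAN-1 against KELLY.

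EPHB4, the receptor of EFNB2, had 16.3, 16.2 and 20.2 TPM in SKNAS, 0.917, 1.94 and 0.986 TPM in LAN-1 and 0.0518, 0.524 and 0.0727 TPM in KELLY control tumours (log2 difference 3.04 and 3.94 for SKNAS against LAN-1 and KELLY, SE 0.19 each). SLC12A9, on the opposite strand over EPHB4, had its highest level in SKNAS and its lowest in KELLY control tumours as well, at 21.1, 14.7 and 7.09 TPM on average. EPHB3 was highest in KELLY and lowest in LAN-1, with 18.3, 14.8 and 21.0 TPM in SKNAS, 10.2 ± 0.969 TPM in LAN-1 and 59.6 ± 17.1 TPM in KELLY control tumours (LAN-1 minus KELLY -2.40, SE 0.20, adjusted p = 4.43e-08). EPHA10, an Eph receptor without kinase activity, was near 0 in SKNAS, at 0.0244, 0.127 and 0.171 TPM, against 7.68, 7.74 and 6.30 TPM in LAN-1 and 5.60, 6.98 and 3.33 TPM in KELLY control tumours (log2 difference -2.89 and -2.47).

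Of the ephrins, EFNA1 was lowest in LAN-1 control tumours, at 0.413, 0.914 and 0.755 TPM, with 9.55, 11.2 and 11.1 TPM in SKNAS and 4.26, 10.8 and 5.40 TPM in KELLY control tumours (SKNAS over LAN-1 2.79, SE 0.31, and LAN-1 minus KELLY -2.13, SE 0.31). EFNA2 was higher in LAN-1 than in KELLY control tumours, at 5.89, 5.80 and 5.28 TPM in LAN-1 and 0.295, 0.411 and 0.595 TPM in KELLY control tumours (log2 difference 2.22, SE 0.16).

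ROBO1 was the most abundant Robo in SKNAS, with 92.3, 73.6 and 98.4 TPM in SKNAS, against 12.5, 14.3 and 14.9 TPM in LAN-1 and 4.04, 12.003 and 12.4 TPM in KELLY control tumours (log2 difference 2.57 and 3.21, SE 0.36 each). The LAN-1 and KELLY ranges did not overlap by a small margin. ROBO3, a divergent Robo that modulates Slit responses at the midline, was lowest in LAN-1, at 0.491, 0.178 and 0.241 TPM, against 7.21, 6.48 and 8.37 TPM in SKNAS and 14.4, 10.8 and 8.83 TPM in KELLY control tumours (2.68 for SKNAS against LAN-1 and -3.22 for LAN-1 against KELLY). SLIT1 was found in LAN-1, at 4.06, 4.20 and 3.89 TPM, and was at 0 in all 3 SKNAS and at most 0.225 TPM in KELLY control tumours (LAN-1 minus KELLY 2.16, SE 0.25). The readthrough gene ARHGAP19-SLIT1 overlaps SLIT1 on the same strand. It averaged 0.741 TPM in SKNAS, 1.87 TPM in LAN-1 and 2.92 TPM in KELLY control tumours.

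Dependence receptors and netrins-G also separated the lines. UNC5A had 2.01, 1.45 and 3.20 TPM in SKNAS, against 36.2, 39.3 and 29.2 TPM in LAN-1 and 15.4, 20.4 and 14.0 TPM in KELLY control tumours (log2 difference -3.51 and -2.47, SE 0.21 each). NTNG2 was at 0.0557, 0.111 and 0.251 TPM in SKNAS, against 8.09, 9.69 and 8.92 TPM in KELLY control tumours (-3.12, SE 0.21). NTNG1 had 7.74, 6.57 and 5.42 TPM in LAN-1, against 0.398, 0.451 and 0.831 TPM in KELLY control tumours (2.28, SE 0.21). KELLY tumours thus carried NTNG2 with little NTNG1, and SKNAS tumours NTNG1 with little NTNG2.

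Among semaphorins and plexins, SEMA6B was 2.85 higher in SKNAS than in KELLY control tumours (6.86 ± 2.03 against 0.0666 ± 0.0888 TPM), and SEMA4F, a class 4 semaphorin, 2.63 higher (27.3 ± 3.19 against 3.66 ± 1.20 TPM). SEMA6A was lower in SKNAS than in LAN-1 control tumours, at 4.02 ± 0.802 against 25.4 ± 1.32 TPM (log2 difference -2.40). SEMA4C was 2.25 higher in LAN-1 than in KELLY control tumours (37.4 ± 3.85 against 7.24 ± 1.94 TPM). PLXNA4 was 2.79 higher in SKNAS than in LAN-1 control tumours (8.98 ± 1.73 against 0.434 ± 0.161 TPM). PLXNA2 was lower in LAN-1 than in KELLY control tumours, at 1.97, 1.97 and 1.28 TPM against 15.2, 20.7 and 21.4 TPM (-2.87, SE 0.23), and PLXNC1 was 2.53 higher (9.93 ± 1.25 against 0.972 ± 0.725 TPM).

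The Hmx1 tumours of the lines, compared in the same way, share no library with the control tumours. For SKNAS against LAN-1, 42 genes passed (53.1% of all genes did), for SKNAS against KELLY 45 (64.8% of all genes did) and for LAN-1 against KELLY 41 (49.9% of all genes did). Of the genes called in both arms, 39 had the same direction for SKNAS against LAN-1, which is 86.7% of the control calls and 92.9% of the Hmx1 calls. For SKNAS against KELLY 40 had the same direction (80.0% and 88.9%) and 1, SEMA3D, the opposite one. For LAN-1 against KELLY 37 had the same direction (88.1% and 90.2%). The matching shares over all genes were not computed, so these figures do not set the guidance genes apart from other genes. SEMA3D was higher in SKNAS than in KELLY control tumours at 3.78 ± 0.584 against 2.07 ± 0.683 TPM, and lower among Hmx1 tumours at 1.55 ± 0.538 against 2.99 ± 0.755 TPM (log2 difference -0.65 in Hmx1 and 0.66 in control tumours). The control difference is near the shift of all genes' median, 0.54, and the Hmx1 difference runs against a shift of 0.52.

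EPHA3 had the clearest departure between the arms. Its SKNAS excess over LAN-1 was 0.82 in Hmx1 tumours and 4.20 in control tumours, and over KELLY 1.82 in Hmx1 tumours and 5.07 in control tumours. SEMA3C was higher in SKNAS than in LAN-1 by 5.48 in Hmx1 tumours and by 5.52 in control tumours. EPHA8, lower in SKNAS than in LAN-1 among control tumours, stood at 5.14 ± 1.37 against 4.91 ± 2.54 TPM among Hmx1 tumours and did not pass there (log2 difference 0.14, adjusted p = 0.769). SEMA6A passed in both arms, at 9.34 ± 1.83 TPM in SKNAS against 17.8 ± 4.52 TPM in LAN-1 among Hmx1 tumours (log2 difference -0.85, adjusted p = 0.00402).

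**Figure D5:**
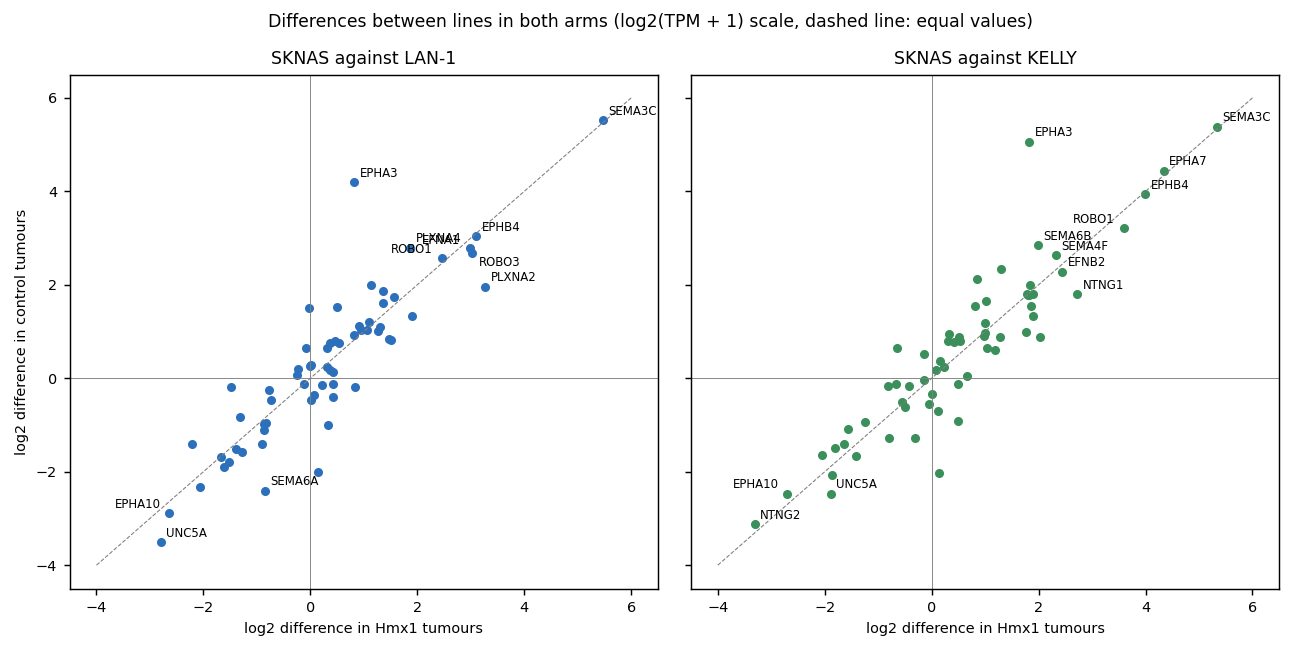
Log2 differences of SKNAS against LAN-1 (left) and against KELLY (right) for the 63 genes, in Hmx1 tumours on the x axis and control tumours on the y axis, with 1 point per gene and a dashed line where both are equal. Most points lie near the line, and EPHA3 lies well above it in both panels.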

How the data were processed

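Total RNA was extracted with a lipid-tissue column kit and sequenced as stranded poly(A) libraries in paired reads on an Illumina HiSeq instrument, per the labels' protocols. The submitters' processing notes name bcl2fastq, FastQC and STAR, with the builds GRCh38.p12 and GRCh37 in no stated role. The coordinates are read here as GRCh37, since the last gene on chromosome 1 ends at 249231242. The table-making tool, annotation, strand use and any removal of mouse reads were not given in the sources used here.

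The authors deposited 1 table per library with TPM, FPKM and coverage per gene, per the file headers. The deposited coverage was not used, and the deposited FPKM served as an alternative. Lines that shared an identifier (8 to 12 identifiers per library) were summed. Of 63677 identifiers, 52181 had a symbol.

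log2(TPM + 1) of 18650 genes with at least 1 TPM in at least 3 libraries was fitted with limma 3.58.1 in R 4.3.3, with a mean for each of the 6 groups and a variance prior that followed the mean. The 12 contrasts were each adjusted by Benjamini-Hochberg over all genes, and an adjusted p under 0.05 was a call. Fold changes are on this scale, which understates the change of low genes. The procedure was tested on simulated data. Named with values were all guidance genes called between arms or in a difference of effects, the 10 largest called differences per pair of control lines, and the leading gene of each family, along with those said to be chosen after their values were seen. The members and lists were chosen with earlier results of these data known. TPM keeps no depth, so no counting error can be given.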

Additional observations from a re-analysis of the deposited data

Results flagged for a closer look

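The Hmx1 effect of 8 guidance genes differed between SKNAS and LAN-1 by the test of the difference itself (limma, Benjamini-Hochberg over all genes, log2 scale, SKNAS minus LAN-1). For the ephrin receptors the difference was -3.37 for EPHA3 (SE 0.23, adjusted p = 5.33e-08) and 2.14 for EPHA8 (SE 0.50, adjusted p = 0.0152), and for the ligand EFNA2 it was -0.81 (SE 0.22, adjusted p = 0.046). Among semaphorins it was -1.53 for SEMA3A (SE 0.28, adjusted p = 0.00204), 1.56 for SEMA6A (SE 0.32, adjusted p = 0.00526) and -1.02 for SEMA6B (SE 0.26, adjusted p = 0.0276). The plexin PLXNA2 differed by 1.31 (SE 0.33, adjusted p = 0.0238) and the netrin NTN4 by 1.33 (SE 0.24, adjusted p = 0.00204). EPHA3 averaged 0.873 TPM in LAN-1 control tumours, so a fall as large as the SKNAS one could not have been seen there.

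Between SKNAS and KELLY the effect of 6 guidance genes differed (SKNAS minus KELLY). The difference was -3.24 for EPHA3 (SE 0.23, adjusted p = 8.84e-08), 2.18 for EPHA8 (SE 0.50, adjusted p = 0.0143), -1.28 for SEMA3A (SE 0.28, adjusted p = 0.00903), -1.31 for SEMA3D (SE 0.31, adjusted p = 0.0185), 1.41 for PLXNA2 (SE 0.33, adjusted p = 0.0154) and 1.14 for NTN4 (SE 0.24, adjusted p = 0.00767). EPHA3 and NTN4 were at or near 0 TPM in KELLY, and these 2 differences are close to the SKNAS changes of -3.25 and 1.16. For EPHA3 a fall in KELLY could not have been seen. For NTN4, which rose in SKNAS, a rise in KELLY could have been seen.

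Not all of these calls were stable. Of 21 alternatives, the difference from LAN-1 was lost in 14 for EFNA2 (11 of them with a library left out, adjusted p = 0.0671 to 0.127), in 9 for SEMA6B (8 with a library left out, adjusted p = 0.0546 to 0.0825) and in 8 for PLXNA2 (all with a library left out, adjusted p = 0.0586 to 0.0766). The difference from KELLY was lost for PLXNA2 without SKNAS control replicate 1 (1.28, adjusted p = 0.0526) and with a pseudocount of 0.1 (adjusted p = 0.0602), and for SEMA3D without SKNAS control replicate 1, SKNAS Hmx1 replicate 1 or KELLY Hmx1 replicate 1 (-1.21 to -1.16, adjusted p = 0.0567 to 0.0619).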

How the results depend on the processing

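The 12 calls between the SKNAS arms became 20 with quantile normalization, the 12 among them, and 17 with median-ratio scaling. They were 8 with a pseudocount of 0.1, of which 7 were among the 12, and 9 to 11 with a library left out. Without SKNAS control replicate 3, 10 of the 11 calls were among the 12. The calls over all genes moved as well, from 1634 to 2189 with quantile normalization and 2034 with median-ratio scaling. They were 1352 with a pseudocount of 0.1 and 1211 to 1397 with a SKNAS library left out. The SKNAS and LAN-1 difference of effects, 8 genes, ranged from 5 to 7 with a library left out and from 6 to 10 otherwise. The SKNAS and KELLY difference, 6 genes, ranged from 4 to 8 and from 5 to 9. Over all genes, the SKNAS differences from LAN-1 and KELLY had 931 and 904 calls. With quantile normalization they had 1353 and 1399, and with a pseudocount of 0.1 they had 746 and 709. The counts of 0 in LAN-1, in KELLY and in their difference were 0 under all alternatives. Between lines, counts for control tumours were 42 to 47 for SKNAS against LAN-1, 43 to 53 for SKNAS against KELLY and 35 to 44 for LAN-1 against KELLY. Over all genes these pairs had 9696, 12245 and 9663 calls, and 10368, 11524 and 9270 with quantile normalization. In Hmx1 tumours, SKNAS against KELLY had 30 higher and 15 lower, but 24 and 21 with median-ratio scaling and 22 and 24 with quantile normalization. Of 56 named results, 43 passed under all alternatives, and of 924 alternative values 59 lost the call and 0 changed sign. These totals include the control-tumour differences between lines, which were named for being the largest called and lost 0 calls. All 59 losses fell on the SKNAS arm calls and the differences of effects. Of the 12 SKNAS arm calls, only EPHA3, EPHA8, NTN4, SEMA3A and SEMA6A passed under all alternatives. A pseudocount of 0.1 also ended the SKNAS calls of PLXNA2 (adjusted p = 0.0515), NTNG1 (adjusted p = 0.11) and PLXNC1, and a fit of the SKNAS libraries alone ended that of PLXNC1. The difference from LAN-1 for EPHA8 missed the threshold with quantile normalization (1.86, adjusted p = 0.0574). The cause of these changes was not tested. No paired analysis was possible because the replicate numbers follow accession order. Depth is unknown, which limits what low TPM values can show.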
